A study of Mus musculus with 6 samples.

Results

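The genes described here are 9 genes of the contractile apparatus of smooth muscle and myofibroblasts (Tagln, Acta2, Myh11, Cnn1, Actg2, Myl9, Tpm1, Tpm2 and Lmod1), taken by symbol from the 49492 genes of a count table for mouse palatal shelves, the paired outgrowths that form the roof of the mouth. All 9 were in the table and all 9 passed the filter on low counts, which left 19284 genes. The genes were chosen by function with their measured fold changes in the same comparison already known, among them a lower Tagln and a higher Acta2 in the deletion libraries. The members' differences between the groups are therefore given as a description, with their errors and without p-values.

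Poly(A) RNA was sequenced from palatal shelves of C57BL embryos at E14.5, when the shelves lift and meet. The 3 control libraries came from PRMT1 fl/fl embryos, whose Prmt1 alleles carry loxP sites and which have no Cre. The 3 deletion libraries came from Wnt1-Cre; PRMT1 fl/fl embryos, which have the same alleles and a recombinase driven by the Wnt1 promoter in the neural crest, the source of most palatal mesenchyme. Prmt1 encodes an arginine methyltransferase, and the series asks which genes change when it is lost. Palatal epithelium, endothelium and skeletal muscle have other origins and are not targets of this Cre, and since Cre is present in the deletion libraries alone, its own effect and that of the deletion cannot be told apart. The labels do not say whether each library came from a separate embryo or from pooled shelves, so the p-values rest on a spread between libraries that may be technical.

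Libraries held 44919889 to 50022829 estimated counts and are named by the numbers in the table's columns, 212, 213 and 220 for control and 208, 211 and 221 for deletion. Levels are CPM, counts relative to each library's total after TMM scaling. Prmt1 stood at 258, 250 and 246 CPM in controls 212, 213 and 220 and was lower in deletion 208, 211 and 221, at 201, 206 and 217 CPM (edgeR adjusted p = 0.0113; log2 fold change -0.27 ± 0.05, SE), a call that was lost without control 213, deletion 208 or deletion 211 (edgeR adjusted p = 0.0674, 0.0638 and 0.0567). The libraries also differed in sex. Controls 212 and 213 held 15.5 and 16.0 CPM of Xist, and the other 4 libraries held 3384 to 4487 CPM, so control 220 was the only control of the same sex as the deletion libraries. The 11 palate mesenchyme markers were all detected, with summed levels of 1181 to 1233 CPM in controls and 1199 to 1299 CPM in deletion libraries.

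In a contractile cell, actin filaments built from smooth muscle actins slide past myosin made of heavy chains such as Myh11 and regulatory light chains such as Myl9. Tropomyosins lie along the actin filament, calponins and transgelins bind it, and leiomodins start its growth. Transcription of many of these genes depends on the factor SRF, which binds a short DNA element called the CArG box, together with its cofactors myocardin (Myocd) and the MRTF proteins (Mkl1 and Mkl2). Most of the 9 genes are not limited to smooth muscle cells: Acta2 marks myofibroblasts and is also expressed in developing skeletal muscle, and Tpm1 and Tpm2 encode both muscle and non-muscle tropomyosins. The name of the list is only partly borne out in this tissue. Myh11 and Cnn1, which are among the most specific markers of mature smooth muscle, were at 8.59 to 12.8 CPM and 0.526 to 1.07 CPM, and Myocd, the cofactor that defines the lineage, at 0.283 to 0.656 CPM.

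Since many such genes depend on SRF, the promoters were searched for CArG boxes on both strands. The RefSeq table for GRCm38.p6 had a window for 6 of the 9 genes, and the 250 bases before the start site were read. An exact CArG box was found in Myl9 alone among these 6, and in 1.47% of all 32851 windows. A form with a single G or C in its core was found in Acta2 and Myl9 and in 7.24% of all windows. Acta2 held 2 of these, and 2 or more were found in 0.548% of all windows. Each box is shown in capitals with 10 bases on either side, and any link between a box and a difference in level was not tested.
Acta2, 84 bases before the start: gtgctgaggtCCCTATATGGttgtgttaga
Acta2, 34 bases before the start: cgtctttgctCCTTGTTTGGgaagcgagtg
Myl9, exact, 161 bases before the start: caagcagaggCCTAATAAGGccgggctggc
Myl9, 99 bases before the start: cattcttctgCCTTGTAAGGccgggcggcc
The Acta2 stretches lie at chr19:34255438-34255467 and chr19:34255388-34255417 on the minus strand. Those of Myl9 lie at chr2:156775293-156775322 and chr2:156775355-156775384 on the plus strand. No box of either form was in the windows of Cnn1, Tpm1, Tpm2 or Lmod1, which says only that these letters are not in those windows. A match is a sequence and not a shown binding site.

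The 9 genes did not differ in a single direction between control and deletion. Tagln was lower and Acta2 and Tpm2 were higher in every deletion library than in any control, while Tpm1, the most highly expressed per length, differed little. Log2 fold changes, deletion minus control, ran from -1.31 for Tagln to 0.65 for Acta2, with 6 of 9 below 0. The median was -0.26, beside -0.000135 for all tested genes, and the median size without sign was 0.38, beside 0.14. Control and deletion libraries did not overlap for 6 of the 9 genes, and did not overlap for 27.5% of all tested genes. By edgeR's quasi-likelihood test at an adjusted p under 0.05, 2 of the 9 were called higher and 1 lower, where 3.65% of all tested genes were called higher and 3.37% lower. Because this comparison entered the choice of the genes, nothing is read from these counts.

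**Figure D1:**
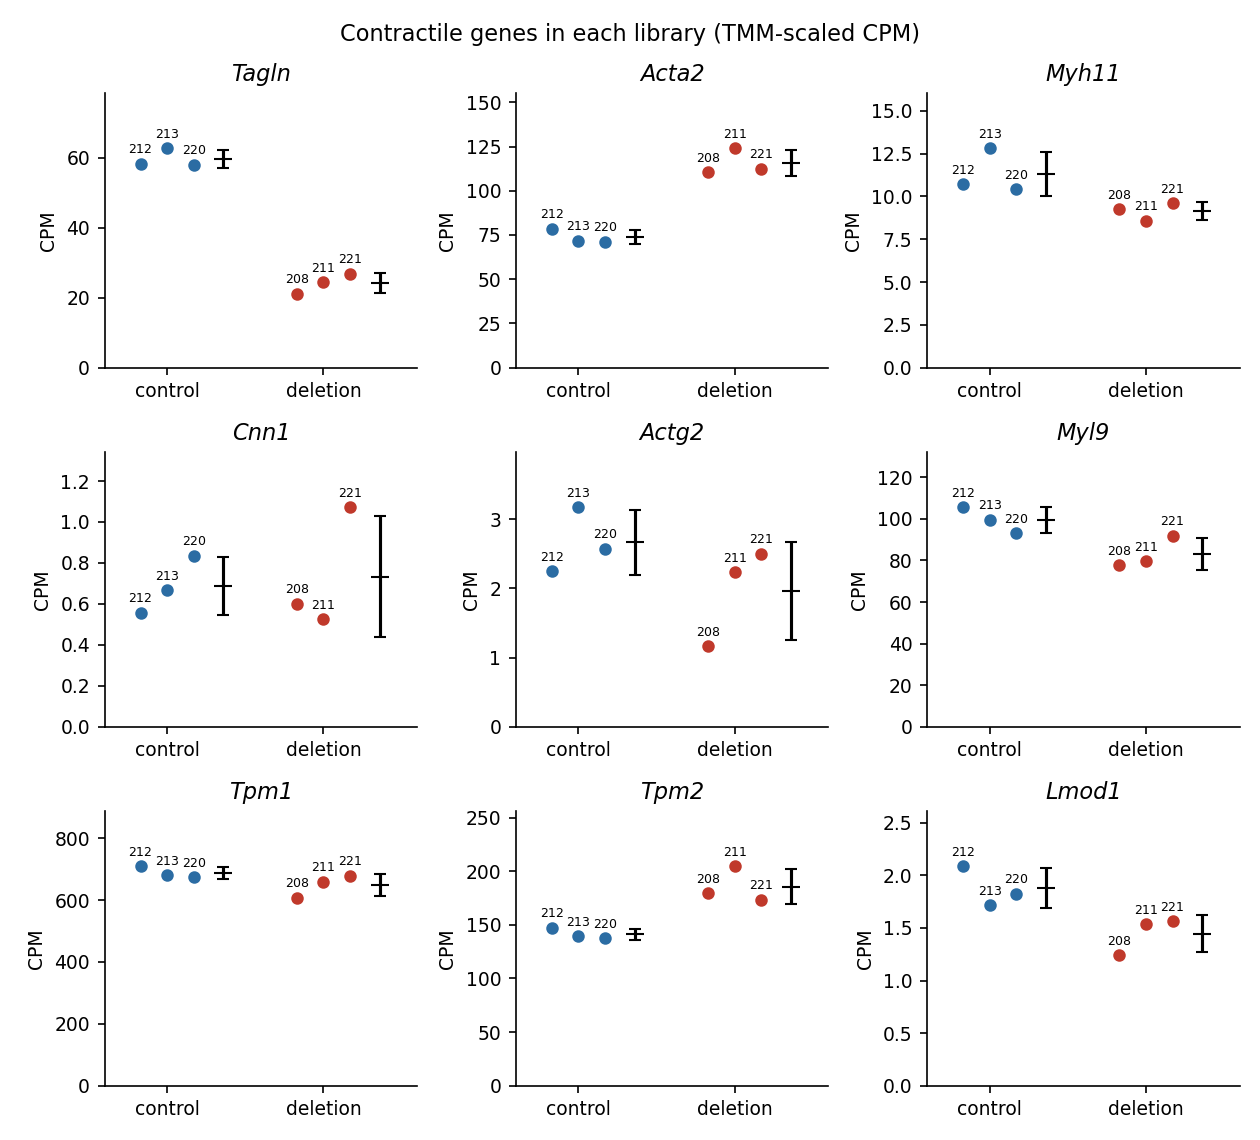
CPM (TMM-scaled, axes from 0) of the 9 contractile genes in each library, with controls in blue, deletion libraries in red and library numbers beside the points. Black bars are mean and SD of 3 libraries. Tagln lies at 58.0 to 62.7 CPM in controls and 21.2 to 26.8 in deletion libraries, Acta2 at 71.2 to 78.5 and 110 to 124, and Cnn1 and Actg2 overlap.

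Tagln encodes transgelin (SM22-alpha), a calponin-related protein that bundles actin filaments, and lies at chromosome 9, 45929619 to 45936058, on the minus strand (mm10). It measured 58.3, 62.7 and 58.0 CPM in controls 212, 213 and 220, and 21.2, 24.4 and 26.8 CPM in deletion 208, 211 and 221. Even the highest deletion library was below every control by more than the spread within either group. Group means were 59.7 ± 2.63 and 24.1 ± 2.84 CPM (n = 3 each, ± SD). Tagln was thus 2.48-fold lower, with a log2 difference of -1.31 ± 0.09 (SE). Against control 220 alone, the control of matching sex, it was -1.26, and with any 1 library left out it was -1.39 to -1.22.

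The count of Tagln carries a limit. Its values were not whole numbers in any of the 6 libraries. The same held for Tpm2, and Myl9 and Tpm1 had whole counts in 1 library each. The annotation of Tagln overlaps Pcsk7 and the antisense gene Gm48529, both on the opposite strand. The strand setting of the counts is not given in the sources used here, so reads of the overlapping parts cannot be assigned to a strand. Pcsk7 itself measured 34.2 to 36.5 CPM in controls and 32.1 to 36.8 CPM in deletion libraries, overlapping between the groups. No 50-base window of the coding transcripts of Tagln occurs in the transcripts of another gene.

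Acta2, the gene of smooth muscle alpha-actin (chromosome 19, 34241090 to 34255590, minus strand), differed in the opposite direction. It measured 78.5, 71.7 and 71.2 CPM in controls 212, 213 and 220, and 110, 124 and 113 CPM in deletion 208, 211 and 221. The lowest deletion library was well above the highest control. Group means were 73.8 ± 4.05 and 116 ± 7.32 CPM (n = 3 each, ± SD). Acta2 was thus 1.57-fold higher, with a log2 difference of 0.65 ± 0.06 (SE). It was 0.70 against control 220 alone and 0.59 to 0.69 with any 1 library left out. Its counts were whole in all 6 libraries, and 0.326% of its 50-base windows occur in another gene.

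The relation of these genes within each library differed between the groups. Per kilobase of exon, the ratio of Acta2 to Tagln was 1.22, 1.04 and 1.11 in controls 212, 213 and 220, and 4.72, 4.61 and 3.80 in deletion 208, 211 and 221. Both genes were thus at about the same level per length in controls, and Acta2 exceeded Tagln several-fold in each deletion library. This ratio does not depend on how libraries are scaled. The ratio of the geometric means was 3.89 between the groups.

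**Figure D2:**
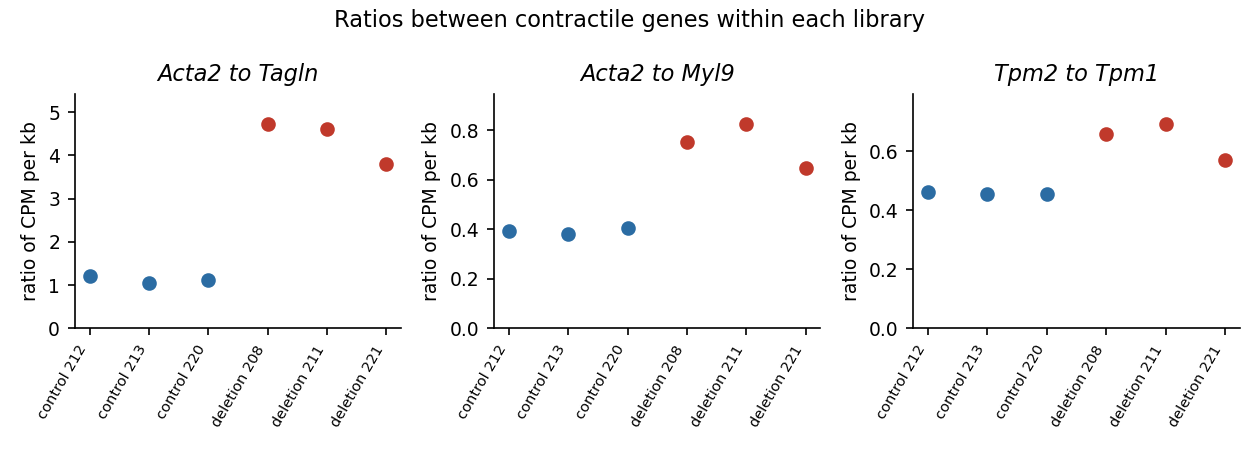
Ratios between contractile genes within each library, as CPM per kilobase of exon (linear axes from 0), with controls in blue and deletion libraries in red. Acta2 to Tagln lies at 1.04 to 1.22 in controls and 3.80 to 4.72 in deletion libraries, and Tpm2 to Tpm1 at 0.454 to 0.463 and 0.569 to 0.691.

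The tropomyosins differed from each other. Tpm2 (chromosome 4, 43514711 to 43523765, minus strand), which encodes beta-tropomyosin, measured 147, 139 and 137 CPM in controls 212, 213 and 220, and 179, 205 and 173 CPM in deletion 208, 211 and 221. All deletion libraries were above all controls, with deletion 211 the highest, as for Acta2. The log2 fold change was 0.39 ± 0.07 (SE). Tpm1, the gene of alpha-tropomyosin, measured 709, 681 and 675 CPM in controls and 608, 660 and 679 CPM in deletion libraries. Its groups overlapped and its log2 fold change was -0.08 ± 0.06 (SE). Counts are per gene, so changes among the splice forms of Tpm1 are not seen.

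Among the myosin genes, Myl9, the smooth muscle regulatory light chain, measured 106, 99.7 and 93.0 CPM in controls 212, 213 and 220, and 77.6, 79.6 and 92.0 CPM in deletion 208, 211 and 221. Deletion 221 came close to control 220, and the log2 fold change of -0.26 ± 0.07 (SE) was -0.16 against control 220 alone. Myh11, the smooth muscle heavy chain, measured 10.7, 12.8 and 10.4 CPM in controls and 9.27, 8.59 and 9.62 CPM in deletion libraries. Its groups did not overlap, with a log2 fold change of -0.31 ± 0.12 (SE) that was -0.19 against control 220 alone. Part of the transcript of Myh11 is shared with Myh9 (0.391% of 50-base windows).

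The remaining 3 genes were low. Lmod1, leiomodin 1, measured 2.09, 1.72 and 1.83 CPM in controls and 1.24, 1.53 and 1.56 CPM in deletion libraries (log2 fold change -0.38 ± 0.23, SE), from 62 to 105 counts. Actg2, the smooth muscle gamma-actin of gut and other visceral muscle, measured 2.25, 3.17 and 2.57 CPM in controls and 1.16, 2.23 and 2.50 CPM in deletion libraries. Deletion 208 and, by a small margin, deletion 211 lay below all controls, deletion 221 did not, and the log2 fold change of -0.44 ± 0.28 (SE) became -0.17 without deletion 208. Cnn1, calponin 1, measured 0.556, 0.667 and 0.836 CPM in controls and 0.601, 0.526 and 1.07 CPM in deletion libraries. These are 24 to 48 counts, and the log2 fold change of 0.09 ± 0.38 (SE) ran from -0.28 to 0.28 with 1 library left out, so neither direction can be given for Cnn1 at this depth.

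Per kilobase of all annotated exons, the order of the 9 genes was the same in both groups: Tpm1, Myl9, Tpm2, Acta2, Tagln, Actg2, Myh11, Lmod1 and Cnn1. Another choice of length could exchange close neighbours, such as Acta2 and Tagln in controls. In controls the mean level ran from 106 CPM per kilobase for Tpm1 and 85.6 for Myl9 to 0.251 for Cnn1, with 33.6 for Acta2 and 30.0 for Tagln. Actg2 and Myh11 were the only neighbours in this order whose control libraries overlapped. In deletion libraries Acta2 was at 52.7 and Tagln at 12.1 CPM per kilobase, and the neighbours that overlapped were Myl9 with Tpm2, Actg2 with Myh11, and Lmod1 with Cnn1.

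Companion genes were tested by edgeR with the p adjusted over all tested genes. Since sex differed between the groups, the test was also run with sex as a covariate, where 22 of the 31 calls named outside the 9 genes were lost, that of Prmt1 among them. Their log2 differences moved by no more than 1.5 times for 27 of the 31, among them those of Prmt1 (-0.24), Des (0.92) and Krt17 (-0.93). The 4 that moved further were Col1a2, F3, Cyr61 and Cdh1. This fit rests on control 220 as the only control of matching sex. Lox, Fhl2, Cyr61, Myog, Tnnc1, Tmem8c, Chrna1, Krt14 and Sfn were still called.

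The closest relatives of these genes show where the differences lay within each family. Of 21 measured paralogs, 3 rose and 3 fell by the edgeR test, beside 7.01% of all genes in either direction. Actc1, cardiac alpha-actin, which embryonic skeletal muscle also uses, rose 2.30-fold, from 105 ± 9.21 to 241 ± 52.2 CPM (SD, n = 3; edgeR adjusted p = 0.0135). The skeletal muscle actin Acta1 was at 53.3 ± 4.65 and 106 ± 28.2 CPM without passing (edgeR adjusted p = 0.0611). The cytoplasmic actins Actb and Actg1 differed by -0.10 and -0.05 on the log2 scale and did not pass (edgeR adjusted p = 0.406 and 0.751). Lmod3, the leiomodin of skeletal muscle, rose 2.66-fold (edgeR adjusted p = 0.00111) and Tmod1, the tropomodulin that caps thin filaments in muscle, 2.11-fold (edgeR adjusted p = 0.00877).

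The paralogs that fell are expressed in many cell types. Myh9, a non-muscle myosin heavy chain, fell from 364 ± 19.6 to 276 ± 23.4 CPM (SD, n = 3; log2 fold change -0.40, edgeR adjusted p = 0.00724). Tpm4 and Tmod3 fell by 0.22 and 0.21 on the log2 scale (edgeR adjusted p = 0.0298 and 0.0333) and are named after their values were seen. Tagln2, a close relative of Tagln, measured 138, 146 and 114 CPM in controls 212, 213 and 220 and 78.4, 103 and 105 CPM in deletion 208, 211 and 221. It did not pass (edgeR adjusted p = 0.111 at a log2 difference of -0.47). Several of these calls were lost when 1 library was left out. Without control 213, Actc1, Tmod1, Myh9, Tpm4 and Tmod3 did not pass (edgeR adjusted p = 0.0502, 0.0502, 0.0584, 0.0943 and 0.139). Their log2 differences there were 1.13, 1.12, -0.36, -0.24 and -0.21, beside 1.20, 1.08, -0.40, -0.22 and -0.21 with all libraries. Over all genes, 356 were called without control 213 and 1352 with all libraries. Actc1 also did not pass without control 212 or deletion 208 (edgeR adjusted p = 0.0614 and 0.0566), Tpm4 not without control 212, control 220, deletion 208 or deletion 211 (0.061 to 0.124), and Tmod3 not without control 220, deletion 208 or deletion 211 (0.0834 to 0.12).

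**Figure D3:**
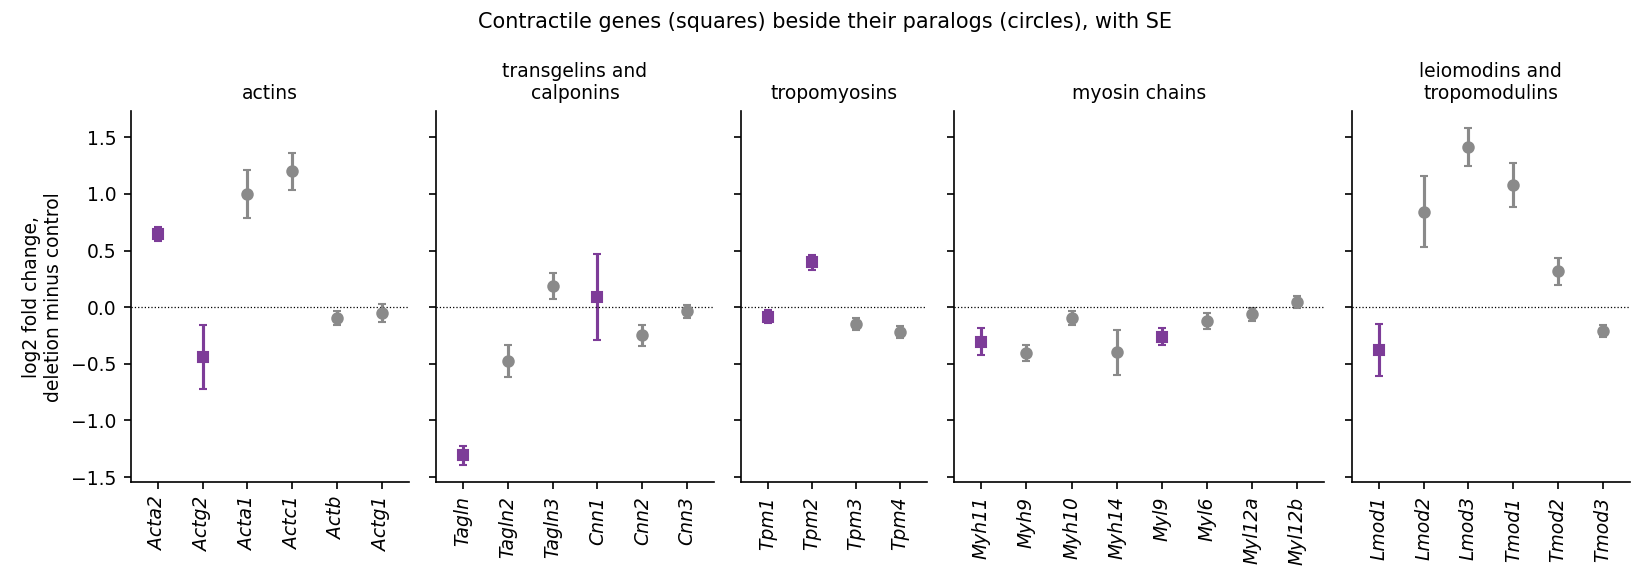
Log2 fold change (deletion minus control) with SE for the 9 contractile genes (purple squares) and their paralogs (grey circles), by protein family. Acta2 (0.65) lies between the muscle actins Acta1 and Actc1 (1.00 and 1.20) and the cytoplasmic actins Actb and Actg1 (-0.10 and -0.05), and Tagln (-1.31) lies below Tagln2 (-0.47).

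The list of other genes of the smooth muscle contractile apparatus, which holds genes such as Des that other muscle types share, also went both ways. Of 24 measured, 5 rose and 3 fell by edgeR (33.3%, beside 7.01% of all tested genes), with a median log2 fold change of 0.03. At an unadjusted p under 0.05 edgeR had 6 higher and 7 lower. Which cell type the higher genes came from was not tested. Des, the intermediate filament protein desmin of all muscle types, rose 1.92-fold, from 28.6 ± 0.341 to 54.8 ± 8.87 CPM (SD, n = 3; edgeR adjusted p = 0.00107). Pdlim3, a Z-disc protein, rose 1.95-fold (edgeR adjusted p = 0.0112, and 0.0728 without control 213). Fhl2, an LIM-domain cofactor that is itself an SRF target, fell from 20.1 ± 1.33 to 11.6 ± 0.869 CPM (1.74-fold; edgeR adjusted p = 0.00114). Itga8, the alpha-8 integrin of smooth muscle and myofibroblasts, fell 1.46-fold (edgeR adjusted p = 0.00167).

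Regulators of the programme were called by edgeR at a share near that of all genes. Of 22 measured, 1 rose and 0 fell (4.55%, beside 7.01% of all tested genes), with 6 at an unadjusted p under 0.05 and 6 called by DESeq2 (2 higher and 4 lower), beside 4344 and 2125 of all 19284 tested genes. By DESeq2 the share of regulators called was thus above that of all genes. With upper-quartile factors edgeR called 1 higher and 3 lower. Srf was at 88.4, 84.9 and 85.7 CPM in controls and 70.5, 80.5 and 73.3 CPM in deletion libraries. Its groups did not overlap, and it did not pass (log2 fold change -0.21 ± 0.06, SE; edgeR adjusted p = 0.058), though it passed with the DESeq2 test, with upper-quartile scaling, with no low-count filter and without deletion 211. Mkl1 and Mkl2 did not pass (edgeR adjusted p = 0.994 and 0.726, at log2 differences of 0.00 and 0.06), and Myocd was too low to be measured well (log2 fold change 0.00 ± 0.41, SE). The gene that rose was Foxo4, a forkhead factor, by 1.23-fold (edgeR adjusted p = 0.0102, and 0.067 without control 213).

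Targets of MRTF and YAP outside the contractile apparatus included 3 of 12 that fell and 0 that rose by edgeR (25%, beside 7.01% of all tested genes). At an unadjusted p under 0.05 edgeR had 2 higher and 3 lower, and DESeq2 called 1 higher and 3 lower. Junb, an early response factor, fell 1.68-fold (edgeR adjusted p = 0.0133), F3, tissue factor, 1.52-fold and Cyr61, a matricellular protein, 1.32-fold (edgeR adjusted p = 0.0343 and 0.0492). Each of the 3 did not pass without control 213 (edgeR adjusted p = 0.0758, 0.125 and 0.0771), without deletion 208 (0.0631, 0.137 and 0.172) or without deletion 211 (0.0557, 0.111 and 0.15). F3 and Cyr61 also did not pass without deletion 221 (0.104 and 0.0705), nor Cyr61 without control 220 (0.0666), where its log2 difference was -0.25 in place of -0.40. With sex as a covariate the log2 difference of F3 was -0.26 in place of -0.60, and that of Cyr61 was -0.66.

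Among 22 genes linked to myofibroblasts and TGF-beta, 3 fell and 0 rose by edgeR (13.6%, beside 7.01% of all tested genes). The list was mixed at looser settings. At an unadjusted p under 0.05 edgeR had 3 higher and 6 lower, and DESeq2 called 3 higher and 5 lower. Lox, which crosslinks collagen and elastin, fell from 391 ± 24.6 to 248 ± 6.15 CPM (SD, n = 3; edgeR adjusted p = 0.000304), and this call was kept in all 14 alternative settings. Tgfb1, the ligand that induces Tagln and Acta2 in many cell types, fell 1.83-fold, from 34.7 ± 5.89 to 19.0 ± 3.52 CPM (edgeR adjusted p = 0.0231). Col1a2, a chain of type I collagen, fell 1.29-fold (edgeR adjusted p = 0.0417). Tgfb1 did not pass without control 213, control 220, deletion 208 or deletion 211 (edgeR adjusted p = 0.0539 to 0.0991), and Col1a2 without any library but control 220 (0.0807 to 0.176). With sex as a covariate the log2 difference of Col1a2 was -0.13 in place of -0.36.

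Because the tissue is mixed, markers of the cell types that could supply these transcripts are given beside the results, and in bulk RNA fewer cells of a type and less RNA per cell cannot be told apart. Skeletal muscle markers moved in the direction of Acta2 and Tpm2. Of 21 measured, 10 rose and 0 fell by edgeR (47.6%, beside 7.01% of all tested genes). By DESeq2 16 were called higher and 1 lower, and at an unadjusted p under 0.05 edgeR had 18 higher and 1 lower, Pax3 (log2 difference -0.51). Of the list, 20 of 21 had fold changes above 0, and the median log2 fold change was 1.13. Their summed level was 551 to 584 CPM in controls and 895 to 1555 CPM in deletion libraries, with none of the genes listed at 0 in any library. Myog, the myogenic transcription factor, measured 28.6, 26.4 and 30.0 CPM in controls and 64.7, 76.5 and 58.8 CPM in deletion libraries (edgeR adjusted p = 0.000218). The next in order of p were Tmem8c, which fuses myoblasts, Tnnc1, a troponin of slow muscle, and Chrna1, a subunit of the muscle acetylcholine receptor (edgeR adjusted p = 0.000581, 0.000581 and 0.000848). Deletion 211 was the highest library for Myog, Acta2 and Tpm2 alike, but the other libraries were not in the same order. The lowest deletion library was 221 for Myog and Tpm2 and 208 for Acta2. The highest control was 220 for Myog and 212 for Acta2 and Tpm2. The part of skeletal muscle in the values of Acta2 and Tpm2 was not tested.

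Markers of mural cells, the pericytes and smooth muscle cells of vessel walls, had a median near 0. Of 18 listed, 16 were measured, and 1 of the list was at 0 in at least 1 library. By edgeR 1 rose and 2 fell (18.8%, beside 7.01% of all tested genes), and the median log2 fold change was -0.00031. Pdgfrb, the PDGF receptor of mural cells and mesenchyme, was at 220 ± 19.0 and 216 ± 30.5 CPM (SD, n = 3; log2 fold change -0.03 ± 0.10, SE), and Rgs5, a pericyte marker, did not pass (edgeR adjusted p = 0.244, log2 difference 0.16). Ednra, the endothelin receptor of neural crest mesenchyme and smooth muscle, rose 1.22-fold (edgeR adjusted p = 0.00901, and 0.0523 without control 213). Anpep and Angpt1 fell by 0.46 and 0.28 on the log2 scale (edgeR adjusted p = 0.0323 and 0.045), and both were past the threshold no longer without control 213 (0.14 and 0.2), control 220 (0.0656 and 0.113), deletion 208 (0.0924 and 0.145) or deletion 211 (0.102 and 0.134). Anpep was also not called without control 212 (0.0694), nor Angpt1 without deletion 221 (0.0645). The summed level of the list was 871 to 958 CPM in controls and 899 to 1008 CPM in deletion libraries, with overlapping groups. The part of mural cells in the values of the 9 genes was not tested. Of 14 endothelial markers, 0 passed by edgeR, 8 had an unadjusted p under 0.05 and 1 was called by DESeq2. The same counts over all 19284 tested genes were 1352, 4344 and 2125. The endothelial markers had a median log2 fold change of -0.14. Kdr and Sox18 had the smallest p (edgeR adjusted p = 0.0623 and 0.0979, at log2 differences of -0.23 and -0.31). Of the 8, 6 were lower and 2 higher, Emcn (edgeR adjusted p = 0.0997, log2 difference 0.24) and Sox17 (0.221, log2 difference 0.38).

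Epithelial markers moved in the direction of Tagln. Of 8 measured, 5 fell and 0 rose by edgeR (62.5%, beside 7.01% of all tested genes), with a median log2 difference of -0.43. Summed levels were 1189 to 1247 CPM in controls and 724 to 965 CPM in deletion libraries. Krt14 and Sfn were called at the smallest p, and Epcam and Cdh1, which join epithelial cells, were also lower (edgeR adjusted p = 0.00432 and 0.00763, the latter 0.0584 without control 213 and with a log2 difference of -0.26 in place of -0.39 with sex as a covariate). Krt14, the basal keratin that myoepithelial cells also express, fell 1.78-fold (edgeR adjusted p = 0.000304) and Krt17 1.90-fold (edgeR adjusted p = 0.0132, and 0.0607 and 0.0522 without control 213 or deletion 211). Reads of keratin genes may be split with related keratins. Of the 3 measured myoepithelial and gland markers Krt17 was the only one called by edgeR. Oxtr did not pass, and Sox10, also a marker of neural crest and glia, was higher in each deletion library without passing (edgeR adjusted p = 0.0787, log2 difference 0.61). None of the epithelial markers was listed at 0 in any library, and their part in the value of Tagln was not tested. Of the 11 palate mesenchyme markers 1 rose (9.09%, beside 7.01% of all tested genes), which was Barx1, by 1.36-fold (edgeR adjusted p = 0.00275).

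**Figure D4:**
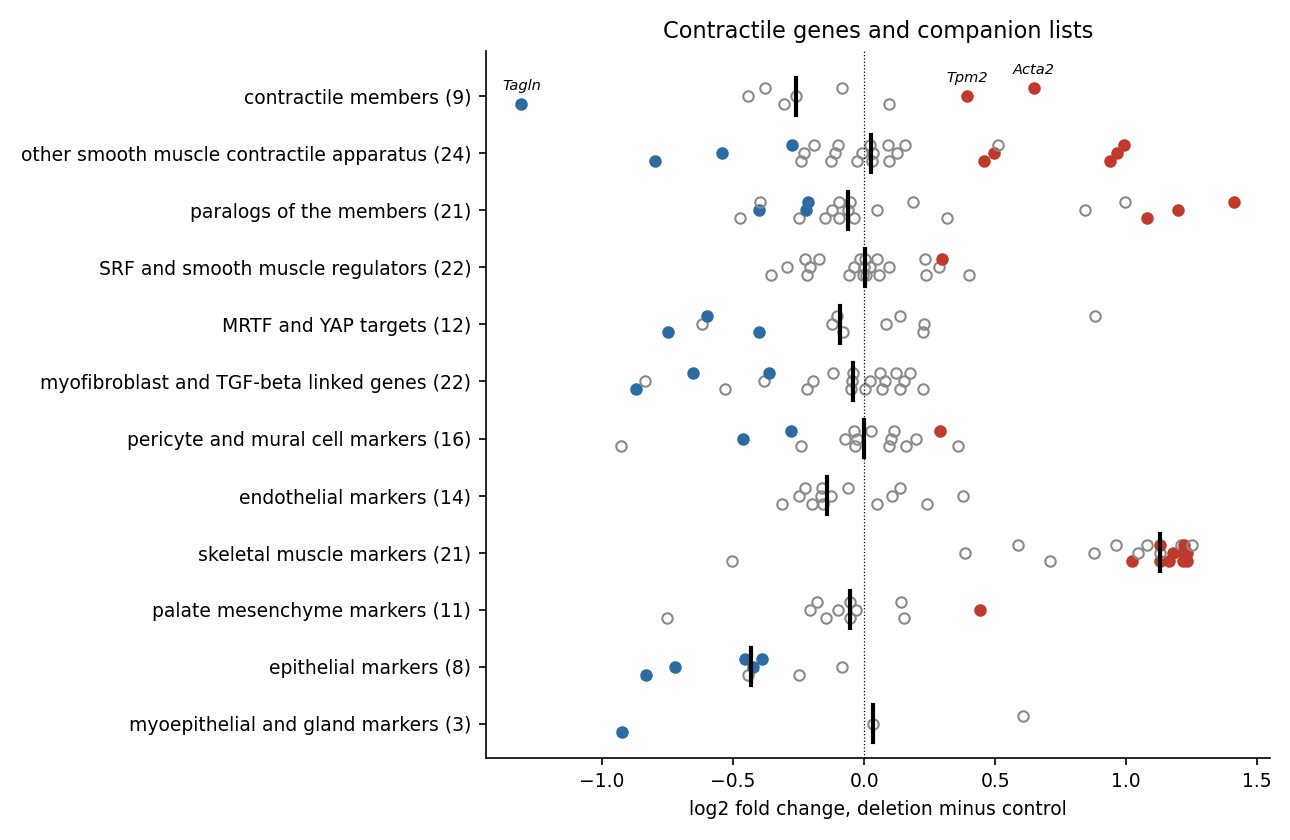
Log2 fold change (deletion minus control) of the 9 contractile genes and of 11 companion lists, with the number of measured genes in brackets. Filled red and blue points passed at an edgeR adjusted p under 0.05, higher and lower, and open points did not. Medians are black bars. The contractile genes spread from -1.31 (Tagln) to 0.65 (Acta2), the skeletal muscle markers have a median of 1.13 and the mural cell markers lie around 0.

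Genes whose levels followed those of the contractile genes over the 6 libraries were also listed, as a description. Among 12762 named genes, the log2 CPM of Bag3, a co-chaperone of the actin cytoskeleton, was most like the mean profile of the 9 (Pearson r = 0.992, n = 6 libraries), followed by Tnfaip8l3, Usp5, Aoc3, Scamp4, Pabpc1, Nudt16 and Nt5dc2 (0.983 to 0.990). Because Tagln and Acta2 differ in direction, each was then taken by itself, a choice made after seeing the values. Tagln was followed most closely by Kctd11, Trpv4, Krt14, Scfd2 and Trappc9 (r = 0.995 to 0.998), and Acta2 by Chrna4, Igf2os, Rrad, Pdgfra and Naca (r = 0.990 to 0.995). Between the 2 genes themselves r was -0.96, and between Acta2 and Tpm2 it was 0.98. With 6 libraries in 2 groups, genes that differ strongly between the groups tend to have a high r with each other, and these values describe likeness of profile alone.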

How the data were processed

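The values the authors deposited are estimated counts for 49492 gene symbols in 6 libraries. They were not normalized, since totals differ, and 22.1% to 22.8% were not whole (tolerance 1e-06). The submitters' processing notes name CASAVA 1.8.2, STAR 2.4.1d, Partek and mm10. Not given in the sources used here are the counter, annotation, strand setting and filters. Column names give the group but not which labelled sample.

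Counts were rounded, filtered with filterByExpr (minimum count 10, minimum total 15), scaled by TMM and tested with edgeR 4.0.16 (glmQLFit with robust=TRUE, glmQLFTest, R 4.3.3), deletion against control without covariates, with Benjamini-Hochberg adjustment over 19284 genes and a threshold of 0.05. The fit was tested on counts simulated from the mean levels and dispersions of these data. Those counts held no sex difference between libraries, so that test does not bear on the sex imbalance here. The SE of a log2 difference is its size over the root of F. Log2 fold changes are deletion minus control. Exon lengths and positions are from GENCODE M21 (GRCm38), promoters from RefSeq (GRCm38.p6). Within each group, every 2 libraries differed by more than sampling noise (chi-square over its degrees of freedom, 7.79 to 38.0).

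The members and the 12 companion lists (193 genes, 190 measured) were chosen with earlier results of these data known. The result of 1 of these lists is not reported here, though its genes are part of the counts over all lists. Genes named are the 9 members, 11 fixed genes, up to 4 called genes per list of smallest p (or 2 where none passed) and the 8 most like profiles. Pcsk7, Tpm4, Tmod3, Tagln2, Oxtr, Sox10, Emcn, Sox17, Pax3 and the profiles like Tagln or Acta2 were added after their values were seen. Alternatives were DESeq2 size factors, upper-quartile factors, the DESeq2 1.42.0 Wald test, no low-count filter, a minimum CPM of 1 in 3 libraries, robust=FALSE, sex as a covariate, leaving out both controls of low Xist, and leaving out each library.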

Additional observations from a re-analysis of the deposited data

How the results depend on the processing

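Tagln, Acta2, Tpm2, Myh11, Actg2, Myl9, Tpm1 and Lmod1 kept the sign of their fold change in all 14 alternative settings, and none of the 9 members moved by more than its spread between libraries. The choice of the members used these fold changes, so this is no sign of stability, and the counts of members past the threshold are given as a description from which nothing is read. The cause of the following differences was not tested. The number of changed genes, 1352 in the full comparison, was 2125 with the DESeq2 test, 129 with sex as a covariate and 89 without both low-Xist controls, and 356 to 1872 with 1 library left out (356 without control 213, 545 without deletion 208, 711 without deletion 211). Companion genes called, 41 of 190, became 66, 12 and 4 in the same 3 settings, and 17 to 57 with 1 library left out (17 without control 213, 26 without deletion 208). Members past the threshold and lower were 1, and 2 with the DESeq2 test and with no low-count filter, and 1 to 2 with 1 library left out (2 without control 220 or deletion 221). Those past it and higher were 2, and 1 with sex as a covariate and without both low-Xist controls, and 1 to 2 with 1 library left out (1 without control 213). Their median log2 fold change was -0.34 to -0.17 with 1 library left out. Both sex settings rest on control 220 as the control of matching sex and are no separate checks. Of 31 other named genes called, 22 were no longer called with sex as a covariate, 27 without both low-Xist controls and 18 without control 213, and 0 changed sign in any setting. Besides that of Cnn1, signs among the named genes turned only for genes near 0 that were not called: Myocd (-0.005 with upper-quartile factors, -0.11 with sex as a covariate, -0.10 without both low-Xist controls), Mkl1 (-0.0077 with upper-quartile factors), Mkl2 (-0.047 with sex as a covariate, -0.045 without both low-Xist controls), and, with 1 library left out, Myocd (-0.27 to 0.28), Mkl1 (-0.026 to 0.046), Pdgfrb (-0.15 to 0.037) and Actg1 (-0.15 to 0.018). No paired analysis was possible because the columns carry none of the replicate numbers that the labels give. Depth limits Cnn1 (24 to 48 counts), Actg2 (58 to 157), Lmod1 (62 to 105) and Myocd.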
